A study of Homo sapiens with 6 samples.

Results

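The glycolysis and hypoxia response genes examined here are 35 genes, taken by symbol from the 58302 genes listed for each library. They comprise 25 genes of glucose uptake, glycolysis, lactate export and pyruvate control, described in pathway order, and 10 genes of the hypoxia response that are not glycolytic enzymes. All 35 were found in all 6 libraries. FPKM are fragments scaled to gene length and to a library size implied by the values. Of the 35 genes, 30 (22 and 8) had a mean of at least 1 FPKM and were tested. The 5 untested genes were PFKFB2, ALDOC, PDK1, CA9 and KDM3A.

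The samples were HCCLM3 cells, a human hepatocellular carcinoma line known for its high metastatic capacity. One group was transfected with Control ASO and the other with SCARNA13 ASO, an antisense oligonucleotide (ASO) named for the small Cajal body RNA SCARNA13, with 3 RNA-seq libraries in each group. No label names an oxygen or glucose condition, or says whether the libraries of a group came from separate cultures. The p-values therefore cover the spread among the libraries at hand, and that spread can be technical. The comparison asked how these genes differed between cells given the 2 oligonucleotides.

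Glycolysis breaks glucose down to pyruvate in the cytosol. When pyruvate is reduced to lactate rather than oxidised in mitochondria, as in many tumour cells, the lactate leaves through monocarboxylate transporters. In low oxygen the hypoxia-inducible factors HIF-1 and HIF-2 are no longer degraded and bind DNA at a short core motif, from which they raise many glycolytic genes together with genes for blood vessel growth, pH control, mitophagy and collagen maturation. Single isoforms at several steps, such as HK2, PFKFB3, LDHA and SLC16A3, are textbook targets of this response, whereas HK1, LDHB and SLC16A1 are less dependent on it.

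The core motif was read from RefSeq promoter windows (GRCh38.p14), as ACGTG or GCGTG on either strand in the 250 bases before the first listed start of each gene. Matches that overlap, as on both strands of the palindrome CACGTG, were taken as 1. Windows were matched for 29 of the 35 genes, and 18 of these 29 (62.1%) held the motif, against 43.1% of 27305 windows of the same length. The windows differed in base composition, with a median GC content of 68.4% in the members and 58.0% in all windows. The motif was in 12 of 22 glycolysis windows and 6 of 7 hypoxia windows. SLC2A3, PFKFB2, SLC16A1, VEGFA, NDRG1 and BNIP3L were not matched. The stretches below are given for the genes on which the results turn, on the plus strand, 5′ to 3′, with the motif in capitals. LDHA (chr11:18394313-18394387) is shown up to the first annotated exon. PGK1 (chrX:78103998-78104173) is shown up to the annotated exon in its window, while the listed gene begins further upstream, at 78065188. PFKFB3 (chr10:6144671-6144920) is shown in full. ENO2 (chr12:6914450-6914478), HK2 (chr2:74833886-74833914) and ANKRD37 (chr4:185396667-185396695) are shown as 29 bases around the first match. Annotated exons cover those last windows in full, the printed bases included. The listed ENO2 and ANKRD37 genes also begin before their windows, at 6913745 and 185396021. The listed LDHA and HK2 genes begin within theirs, at 18394388 and 74833981.
LDHA: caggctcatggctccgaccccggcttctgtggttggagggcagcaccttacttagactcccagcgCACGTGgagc
PFKFB3: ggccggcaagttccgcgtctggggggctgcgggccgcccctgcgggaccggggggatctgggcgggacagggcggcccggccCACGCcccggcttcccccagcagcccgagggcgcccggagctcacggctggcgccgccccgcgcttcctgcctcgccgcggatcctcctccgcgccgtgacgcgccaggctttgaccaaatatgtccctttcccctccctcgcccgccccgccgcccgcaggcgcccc
ENO2: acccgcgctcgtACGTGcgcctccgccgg
PGK1: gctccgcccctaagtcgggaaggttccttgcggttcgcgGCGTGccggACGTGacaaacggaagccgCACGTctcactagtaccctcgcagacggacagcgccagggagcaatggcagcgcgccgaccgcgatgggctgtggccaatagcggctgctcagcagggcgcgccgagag
HK2: agccacggaccaCACGTcccatctcaggc
ANKRD37: ggcgccgggctcCACGTGccagtgtttgt
The LDHA and PGK1 windows each held 3 separate matches. Of these the LDHA stretch shows the palindromic CACGTG, 185 bases before the first listed RefSeq start, and the PGK1 stretch shows all 3. HK2 held 3 matches, ANKRD37 held 2, and PFKFB3 and ENO2 held 1 each. These matches are letters in a window and no measurement of binding.

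Replicate 3 stood apart in both groups, and glycolytic genes were among those it moved. Against the mean of replicates 1 and 2, replicate 3 of the controls ranged from -1.27 (LDHB) to 1.90 (ALDOA) on the log2(FPKM + 0.5) scale, and replicate 3 of SCARNA13 ASO from -1.31 (LDHB) to 1.51 (ALDOA). The median shift of the 22 tested glycolysis genes was 0.77 in controls and 0.76 with SCARNA13 ASO, and that of the 8 tested hypoxia genes was -0.24 and -0.08, against 0.19 and 0.17 for all genes tested. The shift followed GC content across the 30 members (Pearson r = 0.68 and 0.76 across genes, which share the same libraries and are not independent), with PFKL and SLC16A3 at the high end of both and BNIP3L at the low end. The libraries held 20457474 to 25173559 reads in genes. The deposited FPKM were scaled to implied library sizes rather than to these totals. Those sizes were 0.633 and 0.76 of the totals in replicate 3 (control and SCARNA13 ASO) and 1.21 to 1.24 in the others. Replicate 3 values are thus higher than under a scaling to read totals. SCARNA13 itself had 6, 5 and 2 reads in controls and 2, 3 and 2 with SCARNA13 ASO, a ratio of 0.53 (exact 95% interval 0.179 to 1.43, counting error only), so a lower level was not detectable at this depth.

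**Figure D1:**
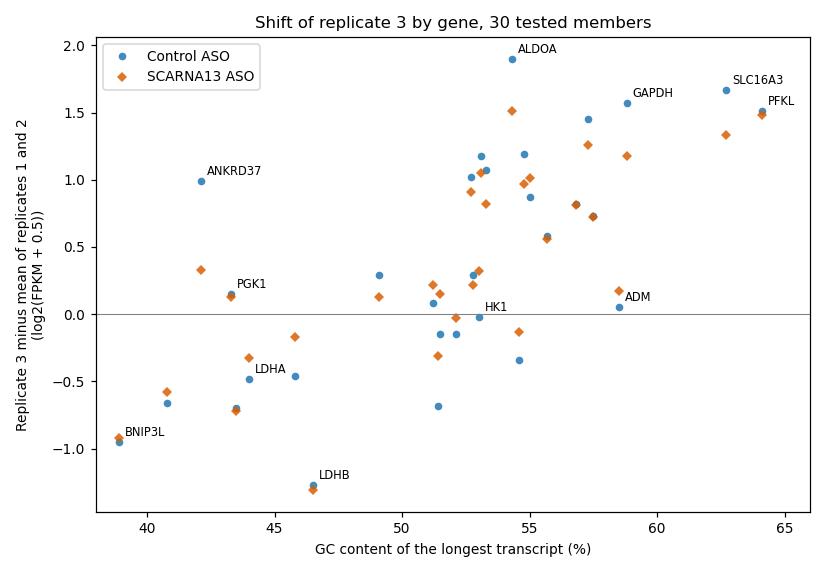
Each point is 1 of the 30 tested genes in 1 group: GC content of its longest transcript in percent (x) against the difference of replicate 3 from the mean of replicates 1 and 2 on the log2(FPKM + 0.5) scale (y). ALDOA lies highest (1.90 in controls) and LDHB lowest (-1.31 with SCARNA13 ASO), and most GC-rich genes lie above 0 in both groups.

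Because of replicate 3, the groups were compared in several ways. With group as the only term (limma-trend, Benjamini-Hochberg adjusted p under 0.05 over all genes), 0 of the 30 members passed and 0 of 10120 genes did (0%). At an unadjusted p under 0.05, this fit gave 0 members and 173 genes (1.71%). With the replicate number as a block, again 0 members and 0% of genes passed, with 11 of 30 members and 25.7% of genes at an unadjusted p under 0.05. With the block and each library corrected for GC content, 1 member was lower (LDHA) and 0 were higher, where 2.15% of 10104 genes passed as lower, 3.06% as higher and 5.21% in either direction. In replicates 1 and 2 alone, 3 members were lower (LDHA, PFKFB3 and ENO2) and 0 were higher, where 4.59% of 10120 genes passed as lower, 4.52% as higher and 9.11% in either direction. At an unadjusted p under 0.05 these fits gave 12 and 11 of the 30 members and 31.3% and 30.5% of all genes. Read against the background, 1 of 30 members is near the share of genes that were lower in the GC-corrected fit. In replicates 1 and 2, 3 of 30 lie above the 4.59% that were lower and near the 9.11% in either direction. Neither comparison was tested. The GC-corrected count itself rested on pairs 1 and 2: it was 526 genes with all pairs, 14 without pair 1, 0 without pair 2 and 763 without pair 3. In what follows a difference is a log2 fold change of SCARNA13 ASO over Control ASO from the paired, GC-corrected fit with its standard error (SE, n = 3 pairs), and adjusted p-values are those of limma, unless another fit is named.

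Defining hepatocyte genes were absent or low in all libraries: ALB, APOA2, APOB, FGB and GPC3 had 0 reads throughout, and of the 11 hepatocyte markers only SERPINA1 averaged above 1 FPKM. Of the 5 epithelial markers KRT8, KRT18 and KRT19 were abundant (summed marker level 2179.8 to 5316.2 FPKM in controls and 2117.3 to 4146.1 FPKM with SCARNA13 ASO). The other markers were near or at 0: EPCAM averaged 0.0698 FPKM in controls and 0.0412 FPKM with SCARNA13 ASO, and CDH1 was at 0. Summed fibroblast markers lay at 5.83 to 6.89 and 6.24 to 8.60 FPKM, mostly COL3A1. In replicates 1 and 2 alone KRT19 (0.27, adjusted p = 0.0312) and COL3A1 (0.28, adjusted p = 0.0466) passed as higher, and neither did in the paired, GC-corrected fit (adjusted p = 0.0662 and 0.0853). Summed immune markers lay at 2.87 to 6.85 and 2.25 to 3.27 FPKM, with CD3E and LYZ at 0. CD14, which made up most of this sum, measured 2.61, 3.78 and 6.36 FPKM in controls and 2.03, 2.01 and 2.80 FPKM with SCARNA13 ASO, lower in 3 of 3 pairs, and did not pass (-0.65 ± 0.13, adjusted p = 0.0593). Summed endothelial markers did not exceed 0.106 FPKM. The part of these markers in the differences below was not tested.

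LDHA had the smallest adjusted p of all members in both of the fits with calls. It encodes the lactate dehydrogenase subunit that favours the reduction of pyruvate to lactate. LDHA (ENSG00000134333, chromosome 11, 18394388 to 18408425, plus strand) measured 125, 119 and 87.6 FPKM in the controls and 95.2, 92.9 and 74.5 FPKM with SCARNA13 ASO. It was lower in 3 of 3 replicate pairs, although the groups overlapped because replicate 3 was low in both. The difference was -0.33 ± 0.049: LDHA fell by 20.6%, with an adjusted p of 0.0394. In replicates 1 and 2 alone it was -0.37 (adjusted p = 0.0238). With group as the only term LDHA stood at an adjusted p of 1.0, and with the block but no GC correction at 0.0983. The paired, GC-corrected call was lost without replicate pair 1 (-0.31, adjusted p = 0.155) or pair 2 (-0.34, adjusted p = 0.156) and kept without pair 3 (-0.35, adjusted p = 0.0315). Listed pseudogene copies of LDHA held at most 0.167% of its reads. In bulk RNA, fewer cells that express a gene and less of its RNA per cell cannot be told apart.

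LDHB, the other subunit of the same enzyme, showed no such difference. It measured 89.8, 88.4 and 36.6 FPKM in controls and 83.8, 90.9 and 34.9 FPKM with SCARNA13 ASO (-0.04 ± 0.059, adjusted p = 0.663). FPKM divides reads by the listed gene length, which was 6210 bases for LDHA and 2983 for LDHB. A share between genes rests on these lengths, which can differ from those of the expressed RNA. The shares are therefore given to compare libraries, not as proportions of RNA molecules. LDHA made up 58.2%, 57.4% and 70.5% of the summed LDHA and LDHB level in controls and 53.2%, 50.5% and 68.1% with SCARNA13 ASO. The share was lower by 5.0, 6.87 and 2.43 percentage points in the 3 pairs, and the groups overlapped because replicate 3 was high in both. The difference between the LDHA and LDHB changes was not tested as such.

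**Figure D2:**
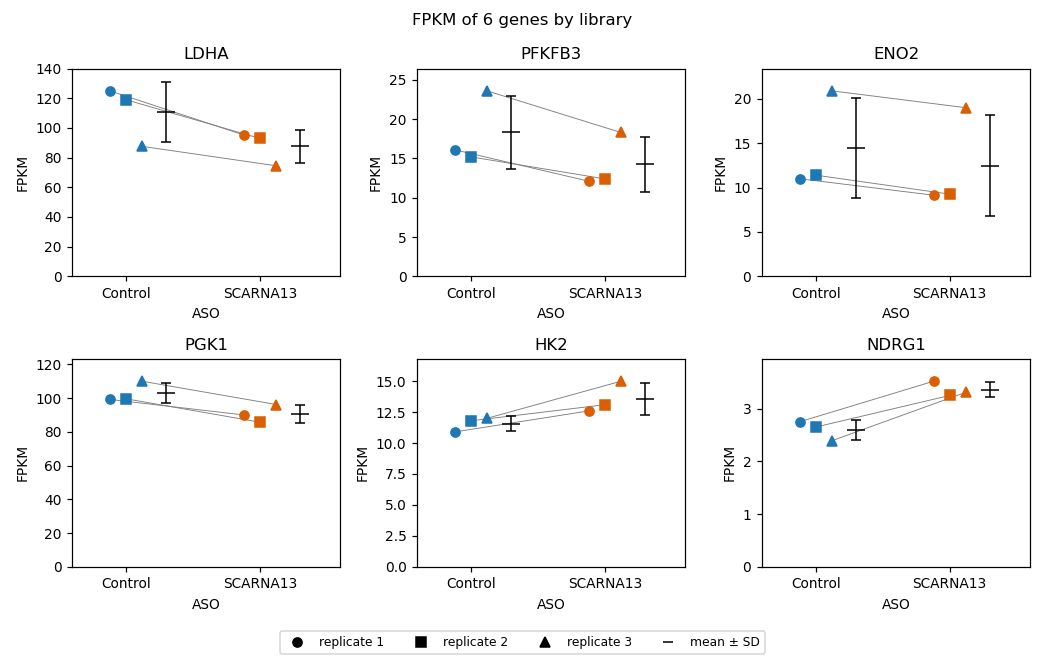
FPKM of LDHA, PFKFB3, ENO2, PGK1, HK2 and NDRG1 (y, linear from 0) in Control ASO and SCARNA13 ASO libraries, with lines joining libraries of the same replicate number and the mean ± SD of 3 libraries beside them. LDHA, PFKFB3, ENO2 and PGK1 were lower and HK2 and NDRG1 higher in each of the 3 pairs, while replicate 3 (triangles) lay apart for LDHA, PFKFB3 and ENO2.

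At the entry to the pathway, neither glucose carrier passed. SLC2A1 (GLUT1), the main glucose carrier of most tumour cells, measured 23.7, 25 and 56.3 FPKM in controls and 22.6, 21.5 and 43.8 FPKM with SCARNA13 ASO (-0.16 ± 0.057, adjusted p = 0.139). SLC2A3 (GLUT3), a carrier of high affinity, had a lower level than SLC2A1, at 4.85 to 6.89 FPKM in controls and 5.49 to 6.64 FPKM with SCARNA13 ASO (adjusted p = 0.785). SLC2A1 was lower in each of the 3 pairs, and its groups overlapped.

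Of the hexokinases, which trap glucose as glucose-6-phosphate, HK2 had every SCARNA13 ASO library above every control. This held for 3 of the 30 tested members and for 4.0% of 10120 genes. HK2 (ENSG00000159399, chromosome 2, 74833981 to 74893359) measured 10.9, 11.8 and 12 FPKM in controls and 12.6, 13.1 and 15 FPKM with SCARNA13 ASO. Its difference of 0.25 ± 0.061 (18.7%) did not pass (adjusted p = 0.0747; 0.14 in replicates 1 and 2 alone). HK1, the constitutive isoform, measured 19.1, 19.2 and 18.9 FPKM in controls and 18.1, 19.8 and 23.8 FPKM with SCARNA13 ASO (adjusted p = 0.382). HK2 made up 36.2% to 38.9% of the summed hexokinase level in controls and 38.7% to 40.9% with SCARNA13 ASO, with overlap. GPI, which isomerises glucose-6-phosphate, measured 43.1, 43.2 and 98.2 FPKM in controls and 42.4, 43.1 and 89.0 FPKM with SCARNA13 ASO (-0.01 ± 0.047, adjusted p = 0.894).

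The 3 phosphofructokinase genes, which encode the subunits of the committed step, had positive differences that did not pass. PFKP, the platelet-type subunit, was the most abundant, at 123, 125 and 206 FPKM in controls and 128, 134 and 216 FPKM with SCARNA13 ASO (0.14, adjusted p = 0.193). PFKL, the liver-type subunit, measured 17.6, 17.4 and 50.6 FPKM against 17.7, 19.4 and 52.4 FPKM (0.15, adjusted p = 0.233). PFKM, the muscle-type subunit, measured 11, 10.3 and 9.54 FPKM against 11.2, 11.7 and 12.7 FPKM, with no overlap between the groups (0.23, adjusted p = 0.157). PFKP held 76.8% to 81.8% of the summed FPKM in every library, so PFKP rather than the liver-type form led at the RNA level. The exact share depends on the listed gene lengths.

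Of the enzymes that set fructose-2,6-bisphosphate, the allosteric activator of phosphofructokinase, PFKFB3 and PFKFB4 were tested; PFKFB3 passed in replicates 1 and 2 alone and PFKFB4 in no fit. PFKFB3, the form with strong kinase activity, measured 16.1, 15.2 and 23.6 FPKM in controls and 12.1, 12.4 and 18.3 FPKM with SCARNA13 ASO. It was lower in 3 of 3 pairs, and the groups overlapped because replicate 3 was high in both. PFKFB3 (ENSG00000170525, chromosome 10, 6144934 to 6254644) passed in replicates 1 and 2 alone (-0.34, a change of -20.9%, adjusted p = 0.0309) and not in all 3 pairs (-0.28 ± 0.059, adjusted p = 0.0591). PFKFB4, another hypoxia-inducible form, measured 3.09, 3.29 and 6.03 FPKM in controls and 2.41, 2.68 and 4.82 FPKM with SCARNA13 ASO (-0.22, adjusted p = 0.129). PFKFB3 made up 79.2% to 81.4% of the 3 forms in controls and 78.2% to 79.4% with SCARNA13 ASO.

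**Figure D3:**
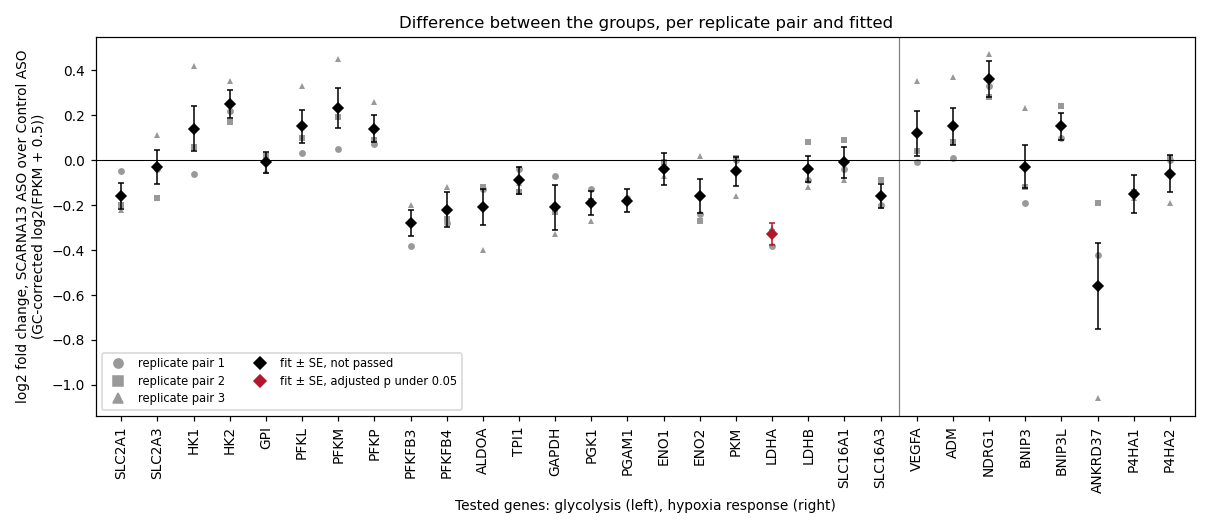
Log2 fold change of SCARNA13 ASO over Control ASO (y, GC-corrected log2(FPKM + 0.5)) for the 30 tested genes (x, glycolysis in pathway order left of the line, hypoxia response right), with grey symbols for the 3 replicate pairs and diamonds for the fit ± SE. LDHA (red) is the gene with an adjusted p under 0.05, at -0.33, and ANKRD37 has the widest spread between pairs, from -0.19 to -1.06.

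The lower part of the pathway held the 5 most abundant members, and 0 of them passed in any fit. GAPDH, which oxidises glyceraldehyde-3-phosphate, ranked 10 of the 10120 tested genes by level, ENO1 38, TPI1 78, ALDOA 85 and PKM 126. ALDOA, the aldolase of most tissues, measured 321, 311 and 1181.5 FPKM in controls and 290, 284 and 821 FPKM with SCARNA13 ASO (-0.21 ± 0.080, adjusted p = 0.147). TPI1, which interconverts the triose phosphates, measured 412, 402 and 1111.1 FPKM against 397, 367 and 912 FPKM (-0.09, adjusted p = 0.344). Both genes lay far higher in replicate 3 of either group, at 3.74-fold and 2.73-fold the mean of replicates 1 and 2 in controls, and this exceeded their difference between groups.

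GAPDH, often used as a constant reference in expression assays, was among the least constant members across libraries in deposited FPKM. It measured 2407.9, 2385.5 and 7104.4 FPKM in controls and 2266.1, 2064.3 and 4897.3 FPKM with SCARNA13 ASO. Replicate 3 thus lay at 2.96-fold and 2.26-fold the mean of replicates 1 and 2. GAPDH reads rose less, at 218329, 189358 and 277215 in controls and 183406, 175448 and 227021 with SCARNA13 ASO. Reads in genes were lowest in replicate 3, at 20663908 in controls and 20457474 with SCARNA13 ASO. The deposited scaling raises replicate 3, and its part in the GAPDH rise was not tested. The GAPDH difference between groups was -0.21 ± 0.099 (adjusted p = 0.213). GAPDH has 62 listed genes named as its copies and TPI1 has 4, and these held up to 0.612% of the GAPDH reads and up to 1.11% of the TPI1 reads. How reads shared with copies were assigned is not given in the sources used here.

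PGK1 and PGAM1, the ATP-forming kinase and the mutase that follows it, were lower in each pair. PGK1 (ENSG00000102144, chromosome X, 78065188 to 78129296) measured 99.2, 99.6 and 110 FPKM in controls and 90.0, 85.7 and 96.2 FPKM with SCARNA13 ASO. It was the only tested member (1 of 30) with every SCARNA13 ASO library below every control, where 4.44% of 10120 genes were. Its difference was -0.19 ± 0.052 (-12.6%, adjusted p = 0.0849; 0.0703 in replicates 1 and 2 alone). PGAM1 measured 227, 223 and 275 FPKM in controls and 199, 194 and 228 FPKM with SCARNA13 ASO (-0.18 ± 0.050, adjusted p = 0.0913; 0.0517 in replicates 1 and 2 alone). Neither passed.

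Of the enolases, ENO2, the isoform typical of neurons and of hypoxic tumour cells, was lower in replicates 1 and 2. ENO2 (ENSG00000111674, chromosome 12, 6913745 to 6923698) measured 11, 11.4 and 20.9 FPKM in controls and 9.14, 9.26 and 19.0 FPKM with SCARNA13 ASO. It passed in replicates 1 and 2 alone (-0.27, a change of -16.8%, adjusted p = 0.0411), at an adjusted p of 0.0570 with the replicate block on the same libraries. Over all 3 pairs it did not (-0.16 ± 0.076, adjusted p = 0.214), and after GC correction pair 3 stood at 0.02. ENO1, the common isoform, measured 1077.1, 1077.5 and 2183.4 FPKM in controls and 1034.3, 1054.3 and 1960.6 FPKM with SCARNA13 ASO (adjusted p = 0.733). ENO1 was 99.0% to 99.1% of the summed enolase level in every library and ENO2 the small remainder.

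At the end of the pathway, pyruvate kinase and the lactate transporters showed no difference that passed. PKM measured 306, 302 and 637 FPKM in controls and 303, 300 and 532 FPKM with SCARNA13 ASO (-0.05, adjusted p = 0.641), with its splice forms not separated in these values. SLC16A3 (MCT4), the lactate exporter induced by hypoxia, measured 55.2, 55.8 and 177 FPKM against 47.4, 54.4 and 129 FPKM (-0.16 ± 0.052, adjusted p = 0.111). SLC16A1 (MCT1), which carries lactate in either direction, measured 7.43, 6.91 and 4.21 FPKM against 7.16, 7.20 and 4.16 FPKM (adjusted p = 0.914). SLC16A3 dominated the pair of transporters, with 88.1% to 97.7% of their summed level in controls and 86.9% to 96.9% with SCARNA13 ASO.

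**Figure D4:**
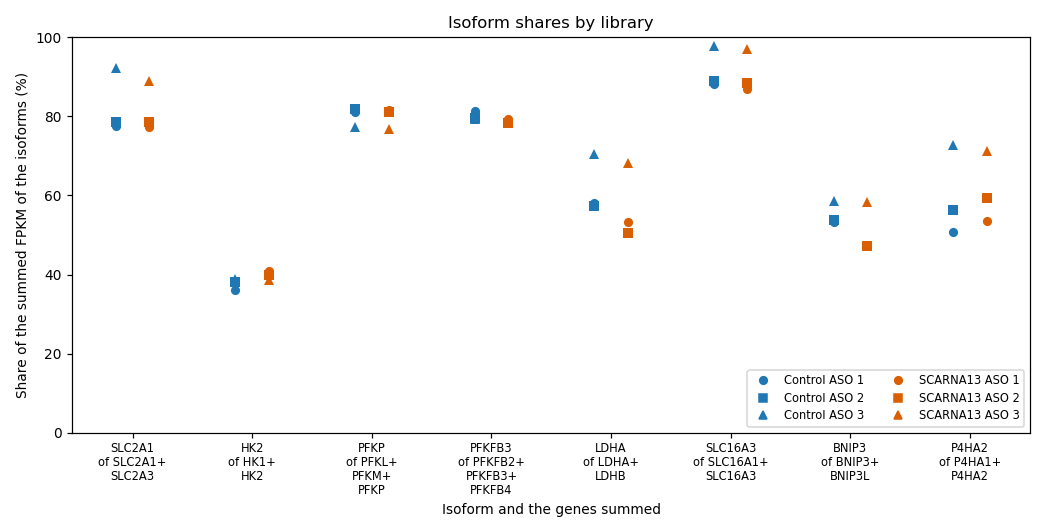
Share of 1 isoform in the summed FPKM of the isoforms of its step, in percent (y, 0 to 100), for 8 steps (x), with 1 symbol per library. The LDHA share lay lower in each SCARNA13 ASO library than in the control of the same number (53.2%, 50.5% and 68.1% against 58.2%, 57.4% and 70.5%), and replicate 3 (triangles) stood apart for most steps.

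Over the whole pathway, 17 of the 22 tested glycolysis genes had a negative difference and 5 a positive one, with a median of -0.07 against 0.000263 for all genes. The 5 positive ones were HK1, HK2 and the 3 phosphofructokinases, all in the first steps. After GC correction 11 glycolysis genes were lower and 4 were higher in all 3 pairs, and over all 30 members 13 were lower and 7 higher, where 28.3% of all genes were lower and 28.9% higher in all 3 pairs. Without GC correction and with group as the only term the median of the 22 was -0.13 (all genes -0.0249), and 17 were negative. Scaling to read totals in place of the deposited scale adds 0.10 to every log2 difference before the pseudocount, and in that fit 11 of the 22 were negative and 11 positive, with a median of -0.03 against 0.057 for all genes. Summed over the 25 genes, glycolysis took 1.72%, 1.73% and 2.11% of all FPKM in controls and 1.69%, 1.6% and 2.03% with SCARNA13 ASO. In reads these shares were 2.61%, 2.60% and 3.31% against 2.51%, 2.41% and 3.07%, lower in 3 of 3 pairs with overlapping groups.

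**Figure D5:**
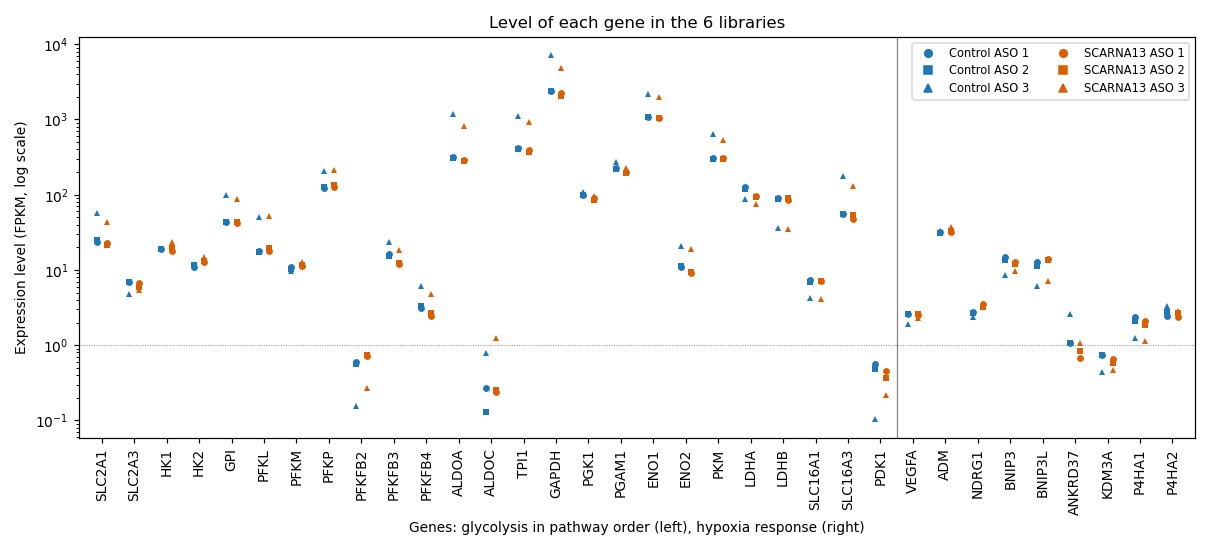
Level of 34 members in each of the 6 libraries (y, FPKM on a log scale; CA9, listed at 0 in 3 libraries, is left out), with glycolysis in pathway order left of the line and hypoxia response genes right. Levels span from under 1 FPKM (dotted line) for PFKFB2, ALDOC, PDK1 and KDM3A to 7104.4 FPKM for GAPDH, and for many abundant enzymes replicate 3 (triangles) lies above the other libraries.

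The hypoxia response genes did not follow a common direction: 4 of the 8 tested had positive and 4 negative differences, with a median of 0.05, and 0 passed in any of the fits above. At an unadjusted p under 0.05, the fits gave 0 of the 8 with group only, 3 with the block, 2 with the block and GC correction and 2 in replicates 1 and 2. Of all 30 tested members, 3 had every SCARNA13 ASO library above every control (HK2, PFKM and NDRG1), where 4.0% of 10120 genes did, and 1 had every one below (PGK1), where 4.44% did.

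The secreted vascular factors did not pass in any fit. VEGFA, the main growth factor of blood vessels and a classical hypoxia target, measured 2.60, 2.56 and 1.93 FPKM in controls and 2.54, 2.61 and 2.32 FPKM with SCARNA13 ASO (0.12 ± 0.10, adjusted p = 0.447). ADM, which encodes the vasodilator adrenomedullin, was more abundant, at 32.3, 31.1 and 32.8 FPKM in controls and 32.1, 33.3 and 36.8 FPKM with SCARNA13 ASO (0.15 ± 0.083, adjusted p = 0.275). For both genes pair 3 stood highest, at 0.35 and 0.37, and the other pairs lay between -0.01 and 0.08.

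NDRG1, a stress-responsive gene linked to growth arrest, had the highest positive difference among the members. It measured 2.75, 2.65 and 2.39 FPKM in controls and 3.52, 3.25 and 3.31 FPKM with SCARNA13 ASO, with no overlap. Its mean was 2.59 FPKM ± 0.186 in controls and 3.36 FPKM ± 0.143 with SCARNA13 ASO (SD, n = 3). The difference was 0.36 ± 0.080, or 28.2% higher, and did not pass (adjusted p = 0.065; 0.0702 in replicates 1 and 2 alone).

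The mitophagy receptors BNIP3 and BNIP3L, both mitochondrial outer-membrane proteins, differed in sign. BNIP3 measured 14.7, 13.4 and 8.58 FPKM in controls and 12.6, 12 and 9.82 FPKM with SCARNA13 ASO, lower in pairs 1 and 2 and higher in pair 3 (adjusted p = 0.858). BNIP3L measured 12.9, 11.4 and 6.05 FPKM in controls and 14, 13.4 and 7.02 FPKM with SCARNA13 ASO, higher in each pair (0.15 ± 0.060, adjusted p = 0.176). BNIP3 made up 53.2%, 53.9% and 58.7% of their sum in controls and 47.3%, 47.2% and 58.3% with SCARNA13 ASO. Listed pseudogenes of BNIP3 held reads equal to between 1.01% and 3.20% of its own. As the assignment of shared reads is not given, their effect on the BNIP3 values is not known.

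ANKRD37, an ankyrin repeat protein gene used as a hypoxia marker, had the most negative difference and the largest error. It measured 1.07, 1.06 and 2.61 FPKM in controls and 0.671, 0.843 and 1.07 FPKM with SCARNA13 ASO, from 245 control reads and 152 SCARNA13 ASO reads. Scaled for library size, their ratio was 0.611 (exact 95% interval 0.496 to 0.751, counting error only). Across pairs the difference ran from -0.19 to -1.06, and the fit gave -0.56 ± 0.19 (adjusted p = 0.126). Control replicate 3, at 2.61 FPKM, lay above the other 5 libraries, which ran from 0.671 to 1.07 FPKM.

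The collagen prolyl 4-hydroxylases, which stabilise the collagen triple helix, did not pass in any fit. P4HA1 measured 2.37, 2.11 and 1.23 FPKM in controls and 2.08, 1.84 and 1.14 FPKM with SCARNA13 ASO (-0.15 ± 0.084, adjusted p = 0.271). P4HA2 measured 2.45, 2.73 and 3.29 FPKM against 2.40, 2.68 and 2.83 FPKM (-0.06 ± 0.084, adjusted p = 0.647).

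The 5 members under the level needed for a test were described from their reads. PDK1, the kinase that shuts off pyruvate dehydrogenase, had 254, 191 and 20 reads in controls and 182, 153 and 50 with SCARNA13 ASO, a ratio of scaled reads of 0.815 (0.711 to 0.935). KDM3A, a histone demethylase, had a ratio of 0.872 (0.777 to 0.978) from 638 and 565 reads. PFKFB2, the cardiac form, had a ratio of 1.25 (1.09 to 1.44) from 361 and 458 reads. ALDOC, the brain-type aldolase, had a ratio of 1.49 (1.08 to 2.08) from 64 and 97 reads. These exact 95% intervals cover counting error only, and replicate 3 differed from the other libraries by more than these ratios: PDK1 stood at 0.103 FPKM in control replicate 3 and 0.561 in replicate 1. CA9, the cell-surface carbonic anhydrase that marks strong hypoxia in many tumours, had 5 reads over the controls and 1 over the SCARNA13 ASO libraries (ratio 0.197, 0.00416 to 1.76), too few to compare.

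Other genes around the pathway were read from lists of neighbouring functions. Of 27 further glycolysis genes 10 were tested and 0 passed, in either the paired, GC-corrected fit or replicates 1 and 2 alone, with 2 at an unadjusted p under 0.05 in each. HKDC1, a further hexokinase, had the smallest adjusted p of these (0.52 ± 0.13, adjusted p = 0.0799), at 6.39, 7.47 and 6.57 FPKM in controls and 8.78, 8.64 and 11.7 FPKM with SCARNA13 ASO. The sugar carriers SLC2A6 (-0.21, adjusted p = 0.103) and SLC2A8 (-0.17, adjusted p = 0.252) were next. HKDC1, like HK2, lay higher in every SCARNA13 ASO library, while neither passed.

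Of 16 genes of pyruvate entry and gluconeogenesis, 12 were tested. In the paired, GC-corrected fit 2 rose and 0 fell, where 3.06% and 2.15% of 10104 genes did. PCK2, the mitochondrial phosphoenolpyruvate carboxykinase, measured 11.1, 11.2 and 30.2 FPKM in controls and 18.4, 18.2 and 40.1 FPKM with SCARNA13 ASO, higher in each pair (0.66 ± 0.051, 1.59-fold, adjusted p = 0.0284; 0.0111 in replicates 1 and 2 alone). PC, pyruvate carboxylase, measured 3.42, 3.37 and 8.48 FPKM against 4.35, 5.94 and 10.6 FPKM (0.52 ± 0.091, 1.43-fold, adjusted p = 0.0477), and did not pass in replicates 1 and 2 alone (adjusted p = 0.0775). The median of the 12 was -0.09, and as 0 genes at all passed without pair 2, these rises were not called there. The pentose phosphate pathway, which branches off at glucose-6-phosphate, had 0 of 7 genes past the threshold in the paired, GC-corrected fit. In replicates 1 and 2 it had 1, where 4.52% of 10120 genes passed as higher. This was PGLS, the lactonase (0.29, adjusted p = 0.0397, and 0.0544 over 3 pairs). PGLS measured 29.2, 29.6 and 78.0 FPKM in controls and 37.5, 34.8 and 81.0 FPKM with SCARNA13 ASO.

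Of 35 further hypoxia response genes 26 were tested, and 4 rose while 1 fell in the paired, GC-corrected fit. STC2, a secreted glycoprotein, rose from 7.01, 6.73 and 12.1 FPKM to 9.74, 10.3 and 16.5 FPKM (0.52 ± 0.060, adjusted p = 0.0365), and PLOD2, a collagen lysyl hydroxylase, from 4.37, 4.57 and 1.52 FPKM to 6.52, 6.01 and 3.05 FPKM (0.56 ± 0.098, adjusted p = 0.0477). LOX, which cross-links collagen, was also higher (0.83, adjusted p = 0.0241), and ANGPTL4, an inhibitor of lipoprotein lipase, fell (-1.19, adjusted p = 0.0241). In replicates 1 and 2 alone PLOD1 also passed as higher (adjusted p = 0.0415) and TFRC, the transferrin receptor, as lower (adjusted p = 0.0438). That fit called 5 of the 26 higher and 2 lower, where 4.52% and 4.59% of 10120 genes were. The median of the 26 was 0.10, with 16 positive and 10 negative. Of 8 HIF subunits and regulators 7 were tested and 1 passed, EPAS1, which encodes HIF-2 alpha (1.11, adjusted p = 0.0241). HIF1A, which encodes HIF-1 alpha, measured 7.42, 7.70 and 3.99 FPKM in controls and 8.83, 8.70 and 4.03 FPKM with SCARNA13 ASO and did not pass (0.11 ± 0.082, adjusted p = 0.408). In all, 5 of the 26 further hypoxia genes, 1 of the 7 HIF genes and 1 of the 30 members passed in the paired, GC-corrected fit. Of all 10104 genes, 5.21% did. Differences between these counts were not tested, and the lists were chosen with earlier results of these data known.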

How the data were processed

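RNA-seq was measured in 6 HCCLM3 libraries. Per the labels' protocols, RNA was extracted with Trizol and libraries were made with an Illumina TruSeq kit. The deposited values are FPKM per gene, made by the authors. The submitters' processing notes name TopHat2 2.0.9, Bowtie2 2.0.6 and hg19 with no role, and neither a counting tool nor an annotation is given in the sources used here. Deposited positions are those of GRCh38: 56636 of 58039 identifiers (97.6%) had the same start and end in GENCODE 29. FPKM times gene length gave whole reads for 100% of values (tolerance 0.01 reads). The implied library sizes were 0.633 and 0.76 of the read totals in replicate 3 (control and SCARNA13 ASO) and 1.21 to 1.24 in the others. In all 6 libraries they equalled the sizes computed from size factors. A size factor is the median ratio of a library's reads to the geometric mean over libraries. The deposited FPKM are thus scaled by size factors and not by read totals.

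Groups and replicate numbers came from the titles. Genes that averaged 1 FPKM or more over the libraries (10120) were tested with limma-trend (limma 3.58.1, R 4.3.3) on log2(FPKM + 0.5), two-sided, Benjamini-Hochberg over all genes. Fold changes on this scale understate low genes. Group was the only term of the main test, and a replicate block, a GC correction (loess span 0.5 on the longest transcript, 10104 genes) with that block, limma-voom on the recovered reads, other pseudocounts (0.1 and 1), no filter, another scaling and left-out libraries were alternatives. Deviations from the group means correlated at 0.84, 0.78 and 0.91 between libraries of the same number, so numbers were taken as pairs, as far as titles and values tell. Replicates 1 and 2 also correlated crosswise, at 0.81. The values thus set replicate 3 apart, but cannot tell how replicates 1 and 2 of the groups belong together. The fits with group only and with the replicate block were run on simulated reads with known fold changes, with the outcome not given here. That simulation shared means between libraries of the same number and held no added GC bias. The GC correction and the paired, GC-corrected fit were not tested on it. All 35 members are named. From the other lists, genes that passed a fit are named, otherwise up to 3 per list with the smallest p. One gene of these lists that passed is counted and not reported here by name. Members and lists were chosen with earlier results of these data known. Where deposited values give reads, 95% intervals are exact and describe counting error alone.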

Additional observations from a re-analysis of the deposited data

How the results depend on the processing

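With group as the only term, 0 of 10120 genes and 0 members passed under each scaling, filter, pseudocount, variance and count-based (limma-voom) setting and with the replicate block alone. The exceptions were the GC correction with replicate block (526 genes, 1 member) and leaving out replicate 3 of both groups. Leaving out libraries gave 0 to 922 genes and 0 to 3 members. Of the alternatives chosen after seeing the data, replicates 1 and 2 with replicate block gave 629 genes and 2 members, and GC correction with no replicate block gave 0 genes and 0 members. In the fit with GC correction and replicate block, leaving out pairs gave 0 to 763 genes and 0 to 2 members. The median log2 fold change of the 30 tested members was -0.080, ran from -0.221 to 0.080 with libraries left out and was 0.012 when scaled to read totals. With GC correction and replicate block it was -0.045, and -0.073 to -0.056 with pairs left out.

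Among single-gene values in alternatives to the fit on group alone, 505 kept their direction and side of the threshold, 6 newly passed and 59 reversed. Scaling to read totals reversed SLC2A3 (0.054), GPI (0.044), ENO1 (0.018), PKM (0.005), LDHB (0.057), SLC16A1 (0.084), BNIP3 (0.032) and P4HA2 (0.006). Replicates 1 and 2 with replicate block reversed HK1 (-0.018), SLC16A1 (0.004) and VEGFA (-0.002). Leaving out libraries reversed these log2 fold changes, given as lowest to highest: SLC2A1 -0.538 to 0.184, SLC2A3 -0.185 to 0.057, HK1 -0.018 to 0.185, GPI -0.405 to 0.336, PFKL -0.423 to 0.572, PFKP -0.165 to 0.317, ALDOA -0.771 to 0.367, TPI1 -0.575 to 0.326, GAPDH -0.671 to 0.245, ENO1 -0.385 to 0.258, ENO2 -0.557 to 0.071, PKM -0.368 to 0.261, LDHB -0.465 to 0.395, SLC16A1 -0.236 to 0.237, SLC16A3 -0.683 to 0.318, VEGFA -0.044 to 0.132, BNIP3 -0.285 to 0.087, BNIP3L -0.141 to 0.483, P4HA1 -0.35 to 0.063, P4HA2 -0.161 to 0.019. With GC correction and replicate block, leaving out pairs reversed SLC2A3 -0.106 to 0.032, GPI -0.025 to 0.008, PKM -0.077 to 0.008, SLC16A1 -0.065 to 0.025, BNIP3 -0.157 to 0.054, P4HA2 -0.097 to 0.003. The cause of these reversals was not tested. Depth limits CA9, with 5 and 1 reads. For PFKFB2, ALDOC, PDK1, KDM3A and ANKRD37 the intervals for counting error exclude a ratio of 1. They pool the libraries of a group, so this does not measure the spread between libraries. In FPKM, PDK1 and KDM3A were lower in pairs 1 and 2 and higher in pair 3, and ALDOC was lower in pair 1 only. PFKFB2 was higher and ANKRD37 lower in each pair.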
